A study of Rattus norvegicus with 6 samples.

Results

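Connexins are the proteins of gap junctions, the channels that join the cytoplasm of neighbouring cells, and pannexins are related membrane proteins. Each connexin crosses the membrane several times and assembles into rings that dock across the gap between cells, so that ions and small molecules pass from one heart muscle cell to the next. In the working ventricle the main connexin is connexin 43, encoded by Gja1, whereas connexin 45, encoded by Gjc1, is typical of nodal cells and connexin 40, encoded by Gja5, of atrial muscle, the fast conduction system and arterial endothelium. Pannexins form channels in single membranes that let ATP out of the cell.

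The members described here were the genes with the symbols Gja1, Gja4, Gja5, Gjc1, Gjb2, Gjd3 and Panx1. They were chosen by symbol, as connexin genes of heart and vessel together with 1 pannexin. Of the 7, 6 were matched among 17089 genes, and Gjd3 was not analysed here. The study compared neonatal rat ventricular myocytes, primary cultures from the ventricles of Sprague Dawley pups of postnatal day 1 to 3, after transfer of the T-box factor Tbx18, which takes part in forming the sinus node in the embryo. The control group, GFP, received Ad-GFP, and the other group, Tbx18, received Ad-Tbx18-IRES-GFP, so both groups carried an adenovirus and expressed GFP. Transduction took place on the day of isolation, RNA was taken on day 4, and each group had 3 libraries. All cultures were kept on fibronectin in a medium based on M199, with 10% fetal bovine serum at first and 2% from day 3. The column names of both groups carry the words unpace and Control, which the labels do not explain. The labels name no promoter, no species for the Tbx18 sequence, and no separate isolations behind the replicates, so the p-values refer to the spread of these libraries alone, and that spread may be technical. No sequencing batch is given; the column codes of the groups do not overlap and their meaning is not stated, so a batch and the group cannot be told apart.

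Libraries held 17074483 to 19800300 gene-assigned reads. Values are normalized counts, that is read counts divided by 1 size factor per library, and they are not divided by gene length. A share of the family total is therefore a share of reads and not of transcripts, and levels are compared between groups for 1 gene at a time. Tbx18 was read at 312, 268 and 296 normalized counts in GFP and at 6004, 6236 and 5937 in Tbx18, as the label of every library has it. Tests used limma on genes whose mean reached 10 normalized counts, and a gene was called where its p, after Benjamini-Hochberg adjustment over all genes tested, was under 0.05. Of the 11230 genes tested, 22.5% were called higher and 23.5% lower in Tbx18. These shares stand behind each count of called genes given below, and no gene list was tested against them.

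Gja1 was the member that changed most. Its normalized counts were 18896, 21918 and 20649 in GFP and 2817, 3130.2 and 3669.9 in Tbx18. The lowest GFP library thus lay far above the highest Tbx18 library. The mean fell 6.39-fold, from 20488 ± 1518 to 3206 ± 432 (SD, n = 3 libraries), with a log2 fold change of -2.68 (SE 0.11, 95% interval -2.93 to -2.44, limma adjusted p = 1.27e-06). Only 17 of the 11230 tested genes had a lower log2 fold change, and among the 3698 tested genes whose mean reached 1000 only 3 did. Over 19 alternative settings the log2 fold change of Gja1 ran from -2.78 to -2.42 and the call was made in each.

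Markers of heart muscle cells moved with Gja1. Of 9 cardiomyocyte markers matched, 8 were called lower and 0 higher, with a median log2 fold change of -0.96 against 0.0051 for all genes tested. Their summed level was 752956 to 833232 in GFP and 439186 to 447970 in Tbx18, with 0 markers at 0. Tnnt2, cardiac troponin T, fell by 1.35 on the log2 scale, Mybpc3, the cardiac myosin-binding protein, by 1.29, Pln, phospholamban, by 2.09, and Actn2, sarcomeric actinin, by 0.96. In bulk RNA, fewer cells of a type and less RNA per cell cannot be told apart. Set against the summed cardiomyocyte markers of the same library, a comparison chosen after the values were seen, Gja1 stood at 25.1, 26.5 and 24.8 counts per 1000 marker counts in GFP and at 6.41, 7.06 and 8.19 in Tbx18. The groups did not overlap on that scale either, and the ratio of means was 3.53 against 6.39 for the normalized counts. Myh6 was the largest part of that marker sum, at 264186 to 331738 in GFP and 208772 to 234833 in Tbx18. It was the 1 marker not called lower in the main setting (log2 fold change -0.41, limma adjusted p = 0.0583). All 9 markers were called lower with edgeR or DESeq2 on recovered reads, with the replicate block, with robust eBayes and without an intensity trend. The same held with a minimum mean of 50 and without GFP replicate 1 or GFP replicate 2. The ratio of 3.53 therefore leans on Myh6, and would be smaller against markers that fell more, such as Pln. Fibroblast markers went the other way: 7 of 8 were called higher and 0 lower (median log2 fold change 1.05), among them Tcf21, Pdgfra and Postn, and their summed level was 194488 to 233118 in GFP and 377770 to 437968 in Tbx18. Most of that sum was Col1a1, at 183972 to 219259 in GFP and 348859 to 411072 in Tbx18. The part of these cell type markers in the change of Gja1 was not tested.

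**Figure D1:**
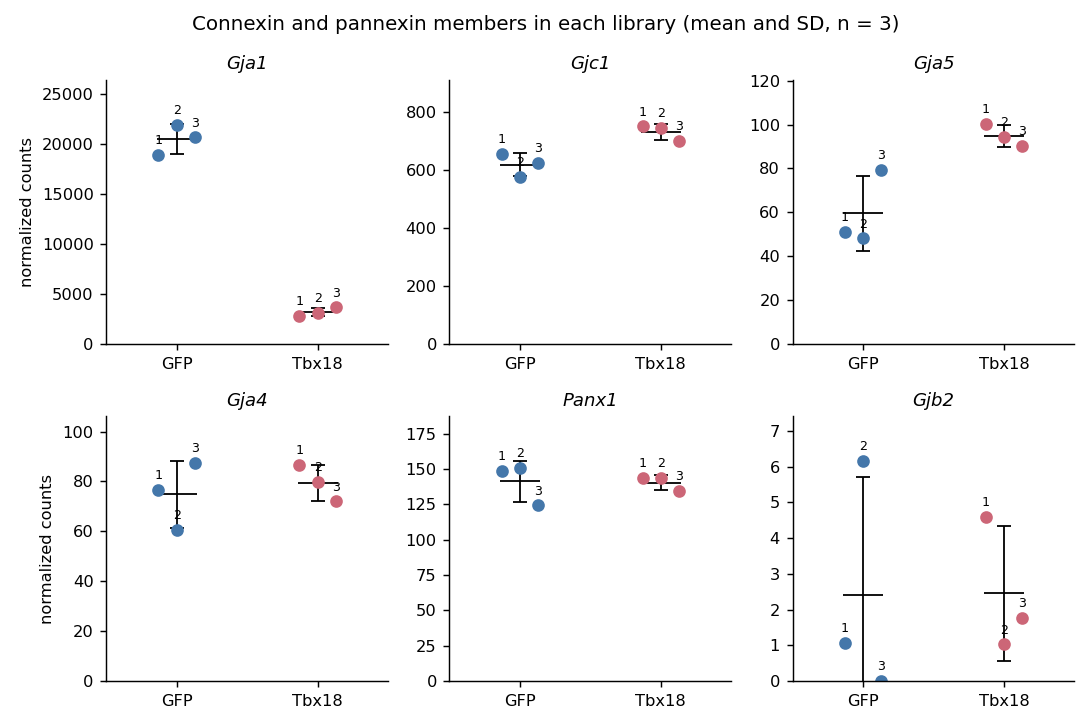
Normalized counts of the 6 matched members (vertical axes, linear, each from 0) in the 3 GFP and 3 Tbx18 libraries. Points are libraries labelled with their replicate number, horizontal lines are means and bars are SDs, the lower GFP bar of Gjb2 being clipped at 0. The Gja1 libraries are far apart (18896 to 21918 against 2817 to 3669.9), those of Gjc1 and Gja5 are separate by smaller gaps, and those of Gja4, Panx1 and Gjb2 overlap.

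The promoter windows of the 2 members called are shown because the factor delivered binds DNA through a T-box. They cover the 250 bases before the RefSeq start on the GRCr8 assembly; the build behind the counts is not given in the sources used here. The Gja1 window is chr20:36302314-36302563 on the plus strand, and its last 74 bases lie inside the annotated Gja1 gene, which has a start further upstream. The Gja5 window is chr2:187290977-187291226 on the plus strand. Capitals mark a TGAGTCA, the letters bound by AP-1 factors, 58 bases before the start in Gja1, and a GGGCGG, the GC box bound by Sp factors, 44 bases before the start in Gja5. The TGAGTCA thus lies among the 74 bases inside the annotated Gja1 gene, downstream of its further start.
Gja1: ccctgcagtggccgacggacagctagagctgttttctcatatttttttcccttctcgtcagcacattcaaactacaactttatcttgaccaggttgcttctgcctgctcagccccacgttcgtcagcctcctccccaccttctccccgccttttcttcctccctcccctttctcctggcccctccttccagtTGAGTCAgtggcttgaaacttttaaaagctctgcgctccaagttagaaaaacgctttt
Gja5: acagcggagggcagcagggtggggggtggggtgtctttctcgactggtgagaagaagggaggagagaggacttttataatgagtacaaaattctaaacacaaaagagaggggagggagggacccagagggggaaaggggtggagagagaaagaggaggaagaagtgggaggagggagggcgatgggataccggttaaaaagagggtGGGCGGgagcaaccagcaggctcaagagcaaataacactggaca
Neither window held the T-box half-site letters GGTGTG or the NK2 letters TNAAGTG on either strand, and 0 of the 5 members with a RefSeq promoter entry held them. GGGCGG was in 4 of these 5, namely Gja5, Gja4, Gjb2 and Panx1, and TGAGTCA in Gja1 alone. Of the 4, Gja5 was called, Gja4 and Panx1 were not, and Gjb2 was below the minimum for testing. Gjc1 had no window of this kind and was not searched. Among 33469 promoter windows of the same length, 15.4% held GGTGTG, 9.89% TNAAGTG, 4.05% TGAGTCA and 30.5% GGGCGG. The last pair of motifs was chosen after the sequences were read. The 4 motifs do not contain one another, and a match or its absence describes these letters in this window only.

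Gjc1 moved little beside Gja1. Its libraries stood at 655, 577 and 625 normalized counts in GFP and at 751, 746 and 701 in Tbx18, so every Tbx18 library was above every GFP library. The means were 619 ± 39.6 and 733 ± 27.4, with a log2 fold change of 0.24 (SE 0.09, 95% interval 0.04 to 0.45 before adjustment). The limma adjusted p was 0.0542, so Gjc1 was not called. It was called higher with upper-quartile scaling (0.32, adjusted p = 0.0192), equal recovered reads (0.51, 0.00258), quantile normalization (0.26, 0.0393), edgeR on recovered reads (0.26, 0.0469) and without GFP replicate 1 (0.29, 0.0285). Its log2 fold change was above 0 in all 19 alternatives, from 0.19 to 0.51, with adjusted p from 0.00258 to 0.180. Smooth muscle and pericyte cells also carry connexin 45: of 10 such markers, 6 were called higher, among them Pdgfrb, Myh11 and Rgs5, and Cnn1 was called lower, with a median log2 fold change of 0.50. Acta2, smooth muscle actin, did not pass the test (log2 fold change 0.30), but was called higher with equal recovered reads, after quantile normalization and without GFP replicate 1, and its log2 fold change ran from 0.045 to 0.85 over the alternatives. The summed level of these markers was 81502 to 119413 in GFP and 124589 to 136813 in Tbx18, with 0 at 0, and their part in the Gjc1 values was not tested. Acta2 was the largest part of that sum, at 38392 to 69553 in GFP and 63713 to 72052 in Tbx18.

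Gja5 was higher in Tbx18. It was read at 51.1, 48.2 and 79.4 normalized counts in GFP and at 100.3, 94.3 and 90.4 in Tbx18. The groups did not overlap, although GFP replicate 3 lay nearer to the Tbx18 libraries than to the other GFP libraries. The mean rose 1.60-fold, from 59.5 ± 17.3 to 95 ± 5.0, with a log2 fold change of 0.70 (SE 0.22, 95% interval 0.21 to 1.19, limma adjusted p = 0.0255). This call was lost when GFP replicate 2 (adjusted p = 0.0752) or any of Tbx18 replicates 1, 2 and 3 was left out (0.0878, 0.0703 and 0.0615) and after quantile normalization (log2 fold change 0.34, adjusted p = 0.218). The log2 fold change stayed above 0 in all 19 alternatives, up to 0.96 with equal recovered reads, with adjusted p from 0.00430 to 0.218.

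Gja4 encodes connexin 37, a connexin of arterial endothelium. It was read at 76.6, 60.5 and 87.4 normalized counts in GFP and at 86.5, 79.9 and 72.0 in Tbx18, and the groups overlapped throughout. The log2 fold change was 0.10 with a 95% interval of -0.34 to 0.53 (limma adjusted p = 0.708), and it was -0.27 after quantile normalization and -0.05 without GFP replicate 2. The interval leaves room for changes of either sign, so no statement of equality can be made.

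Endothelial markers were present in all libraries. Of 10 endothelial markers 6 were called higher, among them Erg, Tek, Cldn5 and Cdh5, and 1 lower, namely Kdr, with a median log2 fold change of 0.54. With equal recovered reads 6 were called higher and 0 lower, so the Kdr call was lost there. Cdh5 was not called without Tbx18 replicate 1, without Tbx18 replicate 3 or without an intensity trend. Pecam1, read at 409, 217 and 334 in GFP and at 351, 391 and 342 in Tbx18, did not pass the test and its groups overlapped. It was called in none of the 19 alternatives, and its log2 fold change of 0.22 turned to -0.03 without GFP replicate 2. The summed level was 1802 to 2897 in GFP and 2715 to 2869 in Tbx18, a wider range within GFP than within Tbx18. Of 7 tested arterial endothelial markers 3 were called higher, Jag1, Efnb2 and Unc5b, and Nrp1 was called lower, with a median of 0.53. The call of Nrp1 was lost in 8 of 19 alternatives, among them each that left out a Tbx18 library, and 1 marker was called higher without GFP replicate 2 or without Tbx18 replicate 3. The summed arterial level was 6050.1 to 7859 in GFP and 7875 to 9148 in Tbx18. Unc5b was the largest part of this sum, at 3799 to 5199 in GFP and 5411 to 6220 in Tbx18. The Unc5b call was lost without GFP replicate 2, GFP replicate 3 or Tbx18 replicate 3. Dll4, Sox17 and Hey1 were not called. Per 100 summed endothelial marker counts, a scale chosen after the values were seen, Gja5 stood at 1.76, 2.67 and 3.10 in GFP and at 3.70, 3.29 and 3.18 in Tbx18. On that scale the gap between the groups was narrower than on the normalized counts, with a ratio of means of 1.35. Kdr, the marker called lower, was the largest part of the endothelial sum, at 841 to 1078 in GFP and 617 to 679 in Tbx18. The ratio therefore depends on the weight of Kdr, and would be smaller against markers that rose more, such as Erg. Gja4 stood at 2.64, 3.36 and 3.41 per 100 endothelial marker counts in GFP and at 3.19, 2.79 and 2.53 in Tbx18, again overlapping. The part of endothelial cells in the Gja5 and Gja4 values was not tested beyond these ratios.

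Panx1, which encodes the channel through which many cells release ATP, stood at 149, 151 and 124 normalized counts in GFP and at 144, 143 and 134 in Tbx18. The Tbx18 libraries all fell inside the GFP range. The means were 141 ± 14.8 and 140.4 ± 5.33, and the log2 fold change was -0.0038 with a 95% interval of -0.33 to 0.32 (limma adjusted p = 0.984). Its sign depended on the scaling, from -0.22 after quantile normalization to 0.26 with equal recovered reads, and it was called in 0 of 19 alternatives. Macrophages also carry Panx1: of 7 macrophage and leukocyte markers 2 were called higher, Csf1r and Cd68, and 0 lower, Ptprc not passing the test in the main setting but in 4 of 19 alternatives, with a median log2 fold change of 0.36 and summed levels of 1093 to 1939 in GFP and 1304 to 1784 in Tbx18. The count of macrophage markers called higher was 0 without Tbx18 replicate 3, 1 after quantile normalization and without GFP replicate 1, GFP replicate 3 or Tbx18 replicate 2, 4 without GFP replicate 2 or with equal recovered reads, and 3 with upper-quartile scaling.

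Gjb2 encodes connexin 26, a connexin of epithelia. It was near the limit of detection, with 1, 5 and 0 reads in the GFP libraries and 5, 1 and 2 reads in the Tbx18 libraries. Its normalized counts were 1.06, 6.17 and 0 against 4.60, 1.02 and 1.76, with overlapping groups, and it was below the minimum for testing. With that minimum lowered to a mean of 1, or with no minimum, Gjb2 was not called (log2 fold change 0.36, limma adjusted p = 0.728 and 0.707). With SEs of 0.76 and 0.70 in these fits, all but a large difference would go undetected. The 0 reads of GFP replicate 3 among 18742 family reads allow a share of up to 0.0160%, by counting error only. Epithelial and mesothelial markers rose in the same libraries: 6 of 7 were called higher and 0 lower, with a median log2 fold change of 1.63. Krt8, Krt18 and Krt19, keratins of simple epithelia, rose by 3.59, 1.63 and 1.48 on the log2 scale, and Epcam, an epithelial adhesion gene, by 2.71. Cdh1, E-cadherin, was at 0 in all GFP libraries and at 39.9 ± 7.82 in Tbx18. The part of these markers in the Gjb2 values was not tested, and their summed level was 634 to 861 in GFP and 3511 to 4217 in Tbx18. In Tbx18 the largest part of that sum was Krt8, at 2268 to 2950.

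In all, 5 of the 6 matched members were tested, 1 was called higher (Gja5, beside 22.5% of all genes tested) and 1 lower (Gja1, beside 23.5%). Gja1, Gjc1 and Gja5, 3 of the 5, had groups that did not overlap, as did 57.2% of all genes tested, so these counts do not set the family apart. The median log2 fold change of the 5 was 0.10, and -0.22 after quantile normalization.

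**Figure D2:**
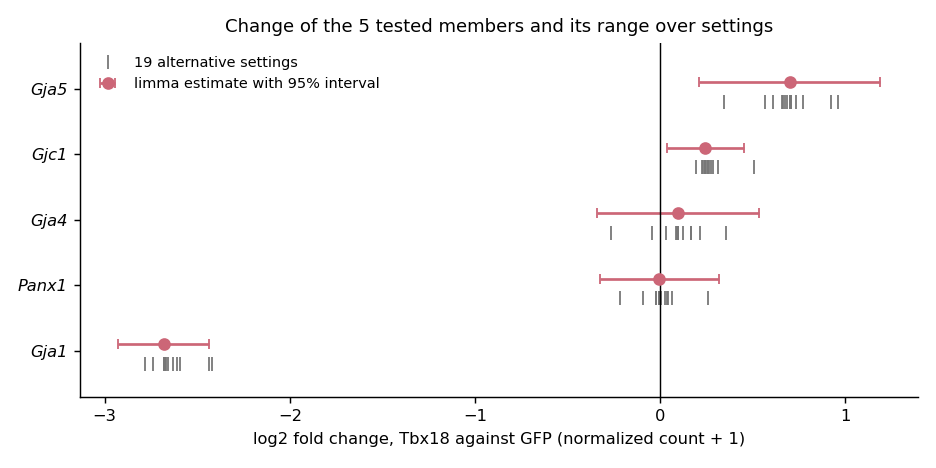
Log2 fold change of the 5 tested members (horizontal axis, Tbx18 against GFP, on normalized counts plus 1). Red points are limma estimates with unadjusted 95% intervals, and grey ticks are the 19 alternative settings. Gja1 lies between -2.78 and -2.42 in every alternative, Gja5 and Gjc1 stay above 0, and Gja4 and Panx1 have ticks on both sides of 0.

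The family total of the 6 members was lower in Tbx18, as was Gja1. It was 19829, 22760.4 and 21565 normalized counts in GFP and 3903, 4195 and 4670 in Tbx18, with means of 21385 ± 1474 and 4256 ± 387, a 5.02-fold difference. The difference was 4.78-fold with upper-quartile scaling and 4.18-fold with equal recovered reads. All GFP libraries were above all Tbx18 libraries, and the exact two-sided permutation p was 0.1, the smallest that 3 against 3 libraries can give over 20 arrangements. Without Gja1, the remaining members summed to 933, 842 and 916 in GFP and to 1086, 1065 and 999.8 in Tbx18, with means of 897 ± 48.2 and 1050.2 ± 45.0 (exact permutation p = 0.1). This remainder was thus 1.17-fold higher in Tbx18, and 1.40-fold higher with equal recovered reads or 1.23-fold with upper-quartile scaling.

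Shares of the family total do not depend on the size factors, since each is formed within a library. Gja1 took 95.3%, 96.3% and 95.8% of the family's counts in GFP and 72.2%, 74.6% and 78.6% in Tbx18. Its mean share went from 95.8% ± 0.50 to 75.1% ± 3.24, a difference of -20.7 percentage points, with no overlap between groups. The share of Gjc1 was 3.30%, 2.53% and 2.90% in GFP and 19.2%, 17.8% and 15.0% in Tbx18. This took the connexin 45 gene from a mean of 2.91% ± 0.39 to 17.3% ± 2.15, 14.4 points higher and the largest of the differences opposite to that of Gja1. Panx1 went from 0.663% ± 0.087 to 3.32% ± 0.41, Gja5 from 0.279% ± 0.080 to 2.25% ± 0.32 and Gja4 from 0.353% ± 0.076 to 1.89% ± 0.34. For each of these 5 members the libraries of the groups did not overlap, and the exact two-sided permutation p was 0.1 before and 0.12 after Benjamini-Hochberg adjustment over the 6 shares; 0.1 is the smallest p that the design allows. Gjb2 was at 0.0108% ± 0.0144 and 0.0600% ± 0.0506 with overlapping libraries (exact permutation p = 0.2). Since Gja1 is the largest part of the denominator, the share of Panx1 was 5.01-fold higher while its normalized counts had a ratio of 0.994.

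Among the members other than Gja1 the composition differed less. With Gja1 out of the denominator, Gjc1 took 70.2%, 68.5% and 68.2% of the counts in GFP and 69.2%, 70.1% and 70.1% in Tbx18. The means of 69.0% ± 1.1 and 69.8% ± 0.55 lay within the spread of the libraries (exact permutation p = 0.4). Gja5 took 6.62% ± 1.78 in GFP and 9.04% ± 0.19 in Tbx18, and Panx1 15.8% ± 2.16 and 13.4% ± 0.14, and each had groups that did not overlap (exact permutation p = 0.1, adjusted 0.25). In Panx1 this is the opposite direction to its share of the whole family. Gja4 took 8.31% ± 1.2 and 7.56% ± 0.39, with overlapping libraries (exact permutation p = 0.5).

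**Figure D3:**
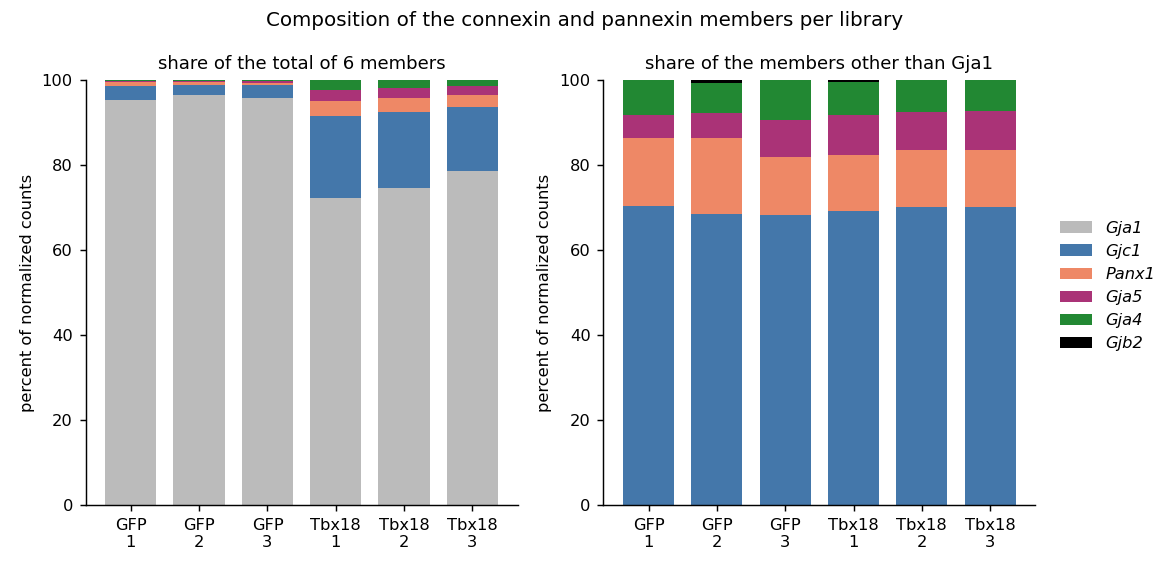
Stacked bars of the percent of normalized counts (vertical axis, 0 to 100) taken by each member in each library, over all 6 matched members on the left and over the members other than Gja1 on the right. On the left the Gja1 part shrinks from 95.3 to 96.3% in GFP to 72.2 to 78.6% in Tbx18 and the Gjc1 part widens; on the right Gjc1 stays between 68.2 and 70.2% in the 6 libraries.

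Set directly against Gja1 in the same library, Gjc1 counts came to 3.47%, 2.63% and 3.03% of Gja1 counts in GFP and to 26.7%, 23.8% and 19.1% in Tbx18. The ratio of connexin 45 to connexin 43 reads was therefore 7.60-fold higher in Tbx18 (log2 difference 2.93, exact permutation p = 0.1). Tbx18 replicate 3, which kept the most Gja1, had the lowest of the Tbx18 ratios. Gja5 went from 0.291% ± 0.084 to 3.01% ± 0.55 of Gja1, 10.5-fold higher by the mean log ratio. Gja4 and Panx1 followed with 6.87-fold and 6.40-fold. None of the libraries of 1 group reached the range of the other in these 4 ratios, and the adjusted exact permutation p was 0.1 for each. All 4 have Gja1 as denominator and so carry its fall, and they are not independent results. Gja4 and Panx1 separated in this way although their normalized counts overlapped between groups. Even Gjb2, near the limit of detection, gave 8.98-fold with a small constant added to its reads (adjusted exact permutation p = 0.1).

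Of 16 further connexin and pannexin genes listed, 15 were matched and 4 passed the minimum for testing, of which 2 were called higher and 0 lower, with a median log2 fold change of 0.53. Gja3, the connexin 46 gene of the lens, stood at 129, 153 and 161 normalized counts in GFP and at 128, 119 and 108 in Tbx18. Panx2, another pannexin gene, stood at 100.0, 87.7 and 100.1 in GFP and at 86.5, 70.7 and 77.2 in Tbx18. In both genes every Tbx18 library was below every GFP library, by a margin smaller than the spread within a group. Neither passed the test (log2 fold changes -0.31 and -0.29, limma adjusted p = 0.121 and 0.178), though both were called lower after quantile normalization (-0.55 and -0.63). Gjb5, an epithelial connexin gene, was at 0, 1.23 and 0 in GFP and at 7.36, 8.20 and 4.39 in Tbx18, below the minimum for testing. With that minimum lowered to a mean of 1, or with no minimum, Gjb5 was called higher (log2 fold change 2.51, limma adjusted p = 0.0043 and 0.0020). Gja6 and Gjb1 were at 0 reads in all 6 libraries. Counting all 21 matched genes of the family in the denominator, the share of Gja1 was 94.6% ± 0.52 in GFP and 70.2% ± 3.61 in Tbx18. In the RefSeq order on GRCr8, Gja3 is separated by 1 coding gene from the member Gjb2. The family is one of paralogs, and reads that match more than 1 of them could have been split or dropped in the counting.

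Proteins that anchor, deliver, phosphorylate and degrade connexins moved both ways, where 22.5% of all genes tested were called higher and 23.5% lower. Of 34 matched and tested genes of this list, 10 were called higher and 11 lower, with a median log2 fold change of -0.04, which was above 0 with upper-quartile scaling (0.03), quantile normalization (0.15) and equal recovered reads (0.22, with 17 higher and 7 lower). Pkp2, the desmosomal plakophilin of the intercalated disc, fell by 1.66 on the log2 scale. Nov, a secreted CCN protein reported to bind connexin 43, rose from 336 ± 57.4 to 983 ± 134 (1.55). Their adjusted p-values in limma were 2.78e-06 and 5.48e-05. Tjp1, the scaffold ZO-1 that binds the tail of connexin 43, stood at 5286, 4621 and 5973 in GFP and at 3835, 3970.4 and 4336 in Tbx18. It was called lower (log2 fold change -0.38, limma adjusted p = 0.0139), but not without Tbx18 replicate 1 or 2, after quantile normalization or with equal recovered reads.

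Transcription factors tied to connexin genes in the heart moved both ways, beside 22.5% of all genes tested called higher and 23.5% lower. Of 18 tested, 9 were called lower and 4 higher, with a median log2 fold change of -0.30; with equal recovered reads the counts were 7 and 6, after quantile normalization 8 and 1. With 1 library left out, 1 to 5 were called higher and 8 or 9 lower, the fewest higher without Tbx18 replicate 1 or Tbx18 replicate 3. Nkx2-5, a homeobox activator of working myocardium, was at 2124 ± 147 in GFP and 1462 ± 88.3 in Tbx18 and was called lower (log2 fold change -0.54, limma adjusted p = 0.000886). Hand1, a helix-loop-helix factor of the left ventricle, fell by 1.69. Tbx5, a T-box activator of Gja5, was at 183 ± 24.8 and 220.1 ± 27.3 and did not pass the test (adjusted p = 0.178 in limma), though it was called higher with equal recovered reads (0.53). The T-box repressor gene Tbx3 was called higher at 41.9 ± 11.5 and 71.5 ± 7.46 (limma adjusted p = 0.0254), but not without GFP replicate 3 or any 1 of the Tbx18 libraries, or after quantile normalization. The homeobox gene Shox2 was called higher at 6.79 ± 2.81 and 18.3 ± 3.39, with the call lost without Tbx18 replicate 1 or 3 and after quantile normalization. Fos, an AP-1 subunit, was at 399, 2143 and 3362 in GFP and at 199, 197 and 226 in Tbx18 (log2 fold change -2.78, limma adjusted p = 0.00475). The GFP libraries of Fos differed widely among themselves, and leaving out GFP replicate 1 gave a log2 fold change of -3.69 for Fos, and leaving out GFP replicate 3 gave -2.15.

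The genes that receive and clear extracellular ATP and adenosine, the signals downstream of pannexin channels, included more called higher than called lower. Of all genes tested, 22.5% were called higher and 23.5% lower, and the list was not tested against these shares. Of 19 tested, 6 were called higher and 2 lower, with a median log2 fold change of 0.39, against 11 and 1 with equal recovered reads, and 4 and 2 without Tbx18 replicate 2. After quantile normalization 5 were called higher and 2 lower, and the median was 0.08. P2ry6, a receptor for uridine nucleotides, rose from 18.4 ± 2.23 to 78.6 ± 21.9 (a log2 fold change of 2.00, with an adjusted p of 0.00026 in limma). Entpd2, an enzyme that breaks down ATP outside the cell, went from 8.46 ± 3.78 to 24.1 ± 2.76 (1.48, limma adjusted p = 0.00937), a call lost after quantile normalization. Ada, adenosine deaminase, rose from 113 ± 13.2 to 243 ± 20.02 (1.11). The ATP-gated channel gene P2rx4 was at 397 ± 49.8 and 432 ± 24.05 and was called higher with equal recovered reads alone, and P2rx7, another gene of that family, was at 8.13 ± 3.92 and 8.57 ± 3.59 and was not tested.

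Genes with the pattern most like a member were found by the root mean square difference, over the 6 libraries, of log2 values taken relative to the GFP mean, among 9226 tested genes with a mean of at least 100. For Gja1 these were Myh7, Ddn and Nxnl2, with differences of 0.116, 0.162 and 0.182. Myh7, the slow myosin heavy chain, went from 235206 ± 17340 to 39582 ± 2848. For Gjc1 they were Cdc27, Pigc and Pdlim7 (0.0237, 0.0253 and 0.0255), and for Gja5 Cdc42ep1, Rgma and Sncaip (0.125, 0.127 and 0.127). The small values for Gjc1 go with its small change, and the measure describes 6 libraries in 2 groups only.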

How the data were processed

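RNA from 6 rat myocyte cultures, 3 per group, was read as 101 bp pairs from stranded mRNA libraries made from 100 ng of RNA, per the labels' protocols. The deposited signal is, per the file headers, DESeq2-normalized counts: the authors divided gene read counts by 1 size factor per library. DESeq2 1.10.1, HTSeq, STAR 2.4.0g1 and bcl2fastq 2.17.1.14 are listed, with no roles, per the submitters' processing notes, and strand setting, annotation and genome build were not given in the sources used here. Every value (100%) was a whole multiple of 1 step within a tolerance of 0.01, so reads were recovered. On these reads edgeR called 5206 genes, against 5164 in limma.

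The test of each gene was run on log2 of the value plus 1 in R 4.3.3 (limma 3.58.1, intensity trend, no block). Shares, totals and ratios were formed within each library and compared by an exact two-sided permutation test. The members and 11 further gene lists (171 symbols in all, 10 of them unmatched) were chosen with earlier results of these data known. Named genes were all members, Tbx18, the 3 called genes with the largest change in each list and 20 further genes; Kdr and Nrp1 were named after their values were seen. Alternatives were other scalings, pseudocounts, filters and limma settings, count tests on recovered reads (DESeq2 1.42.0, edgeR 4.0.16), the replicate number as a block and leaving out each library. The test was tried on simulated counts. Sequences are from RefSeq (GRCr8). Some genes of the lists are not reported here.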

Additional observations from a re-analysis of the deposited data

How the results depend on the processing

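Gja1 kept its direction and its call in all 19 alternatives, and the number of genes called stayed between 3961 and 6121 against 5164. The count of members called higher, 1, was 2 with upper-quartile scaling, with equal recovered reads and with edgeR, and 0 to 2 with 1 library left out; the log2 fold change of Gja5 was 0.34 after quantile normalization and 0.57 to 0.92 with 1 library left out, and that of Gjc1 was 0.32, 0.51, 0.26 and 0.26 with upper-quartile scaling, equal recovered reads, quantile normalization and edgeR and 0.19 to 0.29 with 1 library left out. The sign of 2 members that were not called turned: Gja4 was at -0.27 after quantile normalization and -0.046 to 0.22 with 1 library left out, and Panx1 at 0.067 with upper-quartile scaling, 0.26 with equal recovered reads, 0.0072 with edgeR and -0.093 to 0.045 with 1 library left out. Equal recovered reads moved the median of all genes from 0.0051 to 0.27. With Gja1 out of the denominator the differences in share were -0.76 points for Gja4, -0.051 for Gjb2 and -2.43 for Panx1, since the denominator then no longer fell. Same-numbered libraries deviated from their group means with correlations of -0.0047, 0.15 and 0.016, so the numbers were not taken to pair them; with the replicate block 5155 genes and the same count of members, 1 higher and 1 lower, were called. The alternative per coding length was not run. Low reads limit Gjb2 and Gjb5.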
